A study of Mus musculus with 16 samples.

Results

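The genes described here are 10 glucuronosyltransferase genes of the mouse Ugt2 and Ugt3 families: Ugt2a3, Ugt2b1, Ugt2b5, Ugt2b34, Ugt2b35, Ugt2b36, Ugt2b37, Ugt2b38, Ugt3a1 and Ugt3a2. They were chosen by name, and their probes were found by the RefSeq accession each probe carries. They make up 10 of the 20659 genes named on the array, and all 10 were among the 15049 genes that could be tested. Transcripts were measured in primary hepatocytes, liver cells taken from male C57Bl/J mice and kept in Williams Medium E. At 48 h after plating the cells were left untreated or given SQ1 or pravastatin for another 48 h. SQ1 (squalestatin 1) blocks squalene synthase, and pravastatin blocks HMG-CoA reductase, an earlier enzyme of the same pathway. The labels give 100 µM for SQ1, a unit that could not be checked, and 30 µM for pravastatin, so the drugs are compared as given and not at matched doses. Each of 16 two-colour arrays carried treated RNA in one dye and untreated control RNA in the other, with 8 arrays for each drug and the dyes exchanged between replicates 1 to 4 and 5 to 8. The deposited names give both arrays of a replicate number the same control number, so the drugs share their control cultures. The labels call the arrays of a drug biological replicates, and how many mice gave the cells is not given in the sources used here. The p-values therefore measure the spread between these arrays, which may be partly technical.

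UDP-glucuronosyltransferases sit in the membrane of the endoplasmic reticulum and join a sugar from a UDP-sugar to steroids, bile acids, bilirubin, drugs and other lipophilic molecules, which makes them soluble enough to leave in bile or urine. Enzymes of the Ugt1 and Ugt2 families use UDP-glucuronic acid, whereas enzymes of the Ugt3 family have been found to use other UDP-sugars such as UDP-N-acetylglucosamine. In liver, several Ugt2b genes are abundantly transcribed in hepatocytes and depend on hepatocyte transcription factors, among them HNF4.

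The 8 Ugt2 genes lie in one cluster on chromosome 5 and the 2 Ugt3 genes side by side on chromosome 15. RefSeq promoter sequences (build GRCm38.p6, 250 bases before to 50 after the gene start) were at hand for 9 of the 10 genes. In 8 of the 9, all but that of Ugt2a3, the same run of letters, GTTANANNTTAAC with N for any base, lay before the gene start. The letters are those that all matches to GTTA and TTAAC, 4 bases apart, had in common in these promoters. Only matches on the strand of the gene and before its start were used for this. The spacing was chosen after the promoters had been read, so the count among the 9 follows from the choice. The search of all promoters for the letters covered both strands. The letters are held by 30 of 32851 promoters of the same length, 0.0913%, and 28 of those have them before the start. The windows below show the run in capitals with its neighbouring bases, 73 bases in all, on the strand of the gene, for 6 of the 8 genes: the 4 whose ratios were closest on the arrays, the one that fell most with pravastatin, and the Ugt3 gene.
Ugt2b1 (chr5:86926540-86926612, minus strand): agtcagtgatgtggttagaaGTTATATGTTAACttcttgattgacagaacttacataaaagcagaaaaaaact
Ugt2b36 (chr5:87092567-87092639, minus strand): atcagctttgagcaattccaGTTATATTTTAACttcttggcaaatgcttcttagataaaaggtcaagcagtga
Ugt2b5 (chr5:87140349-87140421, minus strand): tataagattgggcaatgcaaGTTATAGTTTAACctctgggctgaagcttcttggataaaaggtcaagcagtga
Ugt2b37 (chr5:87254814-87254886, minus strand): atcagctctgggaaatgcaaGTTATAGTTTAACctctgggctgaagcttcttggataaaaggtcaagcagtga
Ugt2b38 (chr5:87424215-87424287, minus strand): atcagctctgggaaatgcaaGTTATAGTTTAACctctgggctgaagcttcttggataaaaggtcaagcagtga
Ugt3a1 (chr15:9279679-9279751, plus strand): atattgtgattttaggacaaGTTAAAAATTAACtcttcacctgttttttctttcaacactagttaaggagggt

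The windows of Ugt2b37 and Ugt2b38 were identical at 73 of 73 bases, and that of Ugt2b5 matched both at 65. Over the 250 bases before the start, aligned with gaps, Ugt2b37 and Ugt2b38 were 90% identical, Ugt2b5 and Ugt2b38 84.8%, and Ugt2b5 and Ugt2b37 80%. The next pair, Ugt2b5 and Ugt2b36, reached 64.4%. The windows of Ugt2b34 and Ugt2b35, not printed, matched each other at 40 bases. With the base just before the start as -1, the first base of the run lay between -89 and -61 in the Ugt2b genes and at -130 in Ugt3a1. A match is a description of letters, not a measured binding site.

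The genes had 12 probes, and the probe that stood for each of the 10 genes was well above background and not saturated in both channels of every array. Ugt3a1 was by far the dimmest, with mean log2 signals of 6.80 to 7.51 by drug and channel. Those of the other genes ran from 9.28 to 17.21. The markers of hepatocytes were all detected in every control channel, as were 9 of 9 measured Kupffer cell and leukocyte markers, 8 of 8 endothelial, 7 of 8 stellate cell and fibroblast and 4 of 6 cholangiocyte markers. Markers of other liver cells thus gave signal beside those of hepatocytes. The summed log2 signal of the hepatocyte markers spanned 19.99 to 20.69 in control channels, 19.74 to 20.43 with SQ1 and 18.74 to 19.83 with pravastatin. Fewer cells of a type and less RNA per cell cannot be told apart in such samples. The share of a channel's probes marked well above background ranged from 58.8% to 69.4% across treated channels and from 59.3% to 67.9% across control channels. The number of arrays limits the precision, and the median standard error of a gene was 0.040 on the log2 scale for each drug.

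With pravastatin the transcripts of 9 of the 10 genes fell, where 35.8% of all tested genes were lower, 30.9% higher and 66.7% called in either direction. The largest falls were in Ugt2b1, Ugt3a2 and Ugt2a3, and the smallest among the genes called were in Ugt2b34 and Ugt3a1, although from Agilent's processed signals Ugt3a1 fell by 1.39 on the log2 scale, more than Ugt2b5, Ugt2b37 and Ugt2b38. The gene that did not pass the threshold was Ugt2b35. The median over the 10 genes was -1.26 on the log2 scale, against -0.012 over all tested genes. A gene was called at a limma p-value below 0.05 after Benjamini-Hochberg adjustment over all tested genes, and errors after ± are standard errors of that fit unless an SD is named.

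Ugt2b1, a conjugating enzyme of the 2B subfamily, had log2 signals of 11.15 to 13.79 in the control channels of the pravastatin arrays, with a median of 12.82, and of 8.999 to 9.756 in the pravastatin channels, with a median of 9.23. The channels did not overlap. Its log2 ratio of treated over control was -4.31 at the lowest, -3.37 at the median and -2.30 at the highest of 8 arrays. It fell 9.83-fold (-3.30 ± 0.25, adjusted p = 5.69e-09). This was the gene of the 10 with the widest spread of ratios, with an SD of 0.75.

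Ugt3a2, whose product belongs to the family that takes other UDP-sugars, had pravastatin ratios of -3.44 at the lowest, -2.62 at the median and -2.05 at the highest. All 8 arrays were thus far below 0. It fell 6.30-fold (-2.65 ± 0.18, adjusted p = 1.55e-09). Its second probe gave -3.36 ± 0.24 (adjusted p = 3.16e-09), so both probes fell while their ratios differed by a root-mean-square (RMS) of 0.566. Ugt3a1, the neighbouring gene, had ratios that ran from -1.04 through a median of -0.75 to -0.40. It fell 1.63-fold (-0.71 ± 0.088, adjusted p = 2.14e-06), below 0 on 8 of 8 arrays. From Agilent's processed signals, and likewise from the deposited series table, its fall was larger (-1.39 ± 0.18).

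Ugt2a3, the only gene of the 2A subfamily that was tested, had ratios of -3.31 at the lowest, -2.46 at the median and -1.81 at the highest with pravastatin. Its control signals (11.96 to 13.82) lay above all of its pravastatin signals (10.37 to 10.81). It fell 5.51-fold (-2.46 ± 0.19, adjusted p = 7.62e-09).

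The 4 genes Ugt2b36, Ugt2b5, Ugt2b37 and Ugt2b38, all conjugating enzymes of the 2B subfamily, fell by 1.14 to 1.39 on the log2 scale with pravastatin. Ugt2b36 had ratios of -1.87 at the lowest, -1.45 at the median and -0.91 at the highest, and fell 2.63-fold (-1.39 ± 0.12, adjusted p = 1.73e-08). Ugt2b5 ran from -2.11 through -1.33 to -0.55, a fall of 2.42-fold (-1.28 ± 0.19, adjusted p = 1.89e-05). All arrays of both genes were below 0. Ugt2b37 ran from -2.00 through -1.34 to -0.40 and fell 2.38-fold (-1.25 ± 0.19, adjusted p = 1.49e-05). Ugt2b38 ran from -1.77 through -1.19 to -0.63 and fell 2.20-fold (-1.14 ± 0.16, adjusted p = 6.13e-06). The 4 genes overlapped in their ratios throughout.

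Ugt2b34 and Ugt2b35 moved least within the cluster. Ugt2b34 had pravastatin ratios of -1.48 at the lowest, -0.67 at the median and -0.11 at the highest and fell 1.61-fold (-0.68 ± 0.16, adjusted p = 0.00112). With the arrays centred on their median in place of loess, that call was lost (-0.46, adjusted p = 0.0601). Ugt2b35 ran from -0.83 through -0.29 to 0.25, with 5 arrays below 0 and 3 above, and measured -0.28 ± 0.14 (adjusted p = 0.0848). Its second probe gave -0.43 ± 0.11 and passed (adjusted p = 0.00289), and the mean of both probes passed too (-0.36, adjusted p = 0.0183). With the replicate number as a random block, Ugt2b35 also passed at the same size (adjusted p = 0.0426), as it did without pravastatin replicate 4 (-0.36, adjusted p = 0.0341) or 8 (-0.35, adjusted p = 0.0436).

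**Figure D1:**
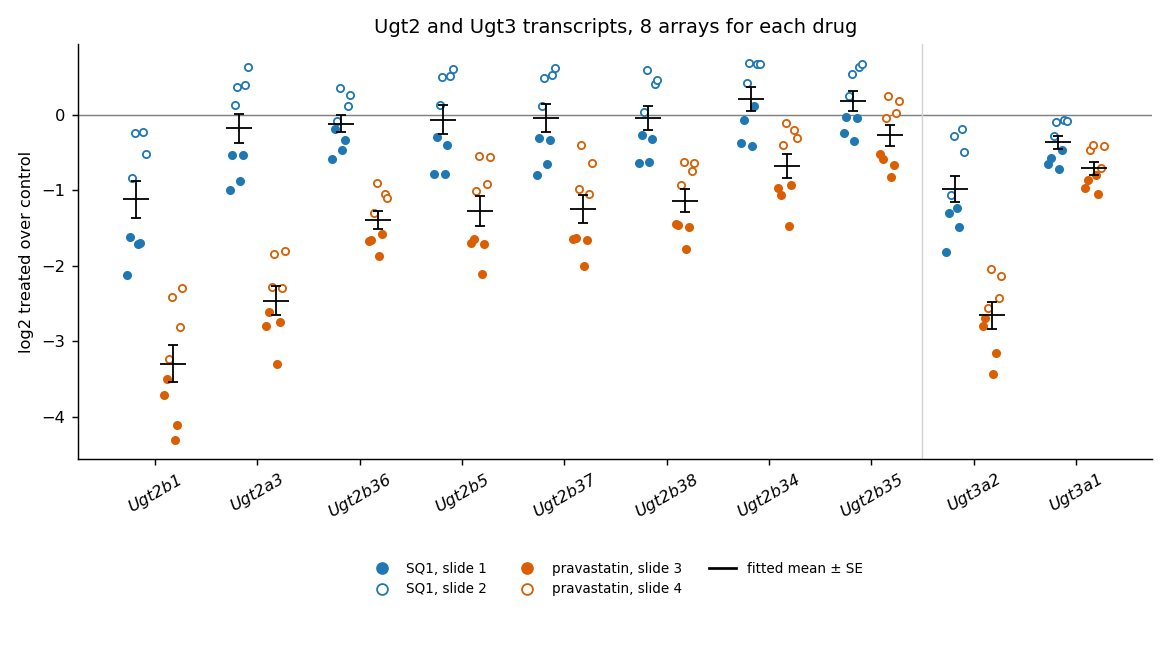
Log2 ratio of treated over control (vertical axis, dye effect removed) for each of the 10 genes on every array, blue for SQ1 and orange for pravastatin, with filled points for slides 1 and 3 and open points for slides 2 and 4. Black bars give the fitted mean ± SE, and Ugt2b1 with pravastatin is the lowest at -3.30, while the filled points lie below the open ones in each gene.

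With SQ1, 3 of the 10 genes fell, Ugt2b1, Ugt3a2 and Ugt3a1, and 0 rose. Of all tested genes 32.3% were called with SQ1, 15.7% higher and 16.6% lower. The other 7 genes had log2 differences between -0.18 and 0.21 and did not pass the threshold. The median over the 10 genes was -0.093, against -0.0024 over all tested genes.

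Ugt2b1 had SQ1 ratios of -2.13 at the lowest, -1.23 at the median and -0.22 at the highest of 8 arrays, all below 0. It fell 2.18-fold (-1.12 ± 0.25, adjusted p = 0.00231). Ugt3a2 ran from -1.82 through -1.15 to -0.19 and fell 1.98-fold (-0.98 ± 0.18, adjusted p = 0.000499), and its second probe gave -1.12 ± 0.24 (adjusted p = 0.00187). Ugt3a1 ran from -0.72 through -0.37 to -0.068 and fell 1.29-fold (-0.37 ± 0.088, adjusted p = 0.00408), or by 0.70 ± 0.18 on the log2 scale from Agilent's processed signals. The genes that fell with SQ1 thus include both Ugt3 genes and a single gene of the chromosome 5 cluster.

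Among the genes that were not called, Ugt2a3 had SQ1 ratios from -1.0 through -0.21 to 0.62, with 4 arrays below 0 and 4 above (-0.18 ± 0.19, 95% interval -0.58 to 0.22, adjusted p = 0.501). Ugt2b36 measured -0.12 ± 0.12 (interval -0.36 to 0.12, adjusted p = 0.466). Ugt2b5 measured -0.067 ± 0.19 (interval -0.48 to 0.34, adjusted p = 0.828). Each of these means lay near 0 while single arrays reached beyond 0.3 in either direction. Ugt2b37 measured -0.045 ± 0.19 (interval -0.44 to 0.35) and Ugt2b38 -0.047 ± 0.16 (interval -0.38 to 0.28). Centring on the median in place of loess turned the sign of Ugt2b5, Ugt2b36, Ugt2b37 and Ugt2b38, to between 0.017 and 0.090. Ugt2b34 (0.21 ± 0.16, interval -0.13 to 0.55) and Ugt2b35 (0.18 ± 0.14, interval -0.11 to 0.47) lay above 0. Most of the spread behind these 7 means lay between slides, which are described after the comparison of the drugs.

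The direct comparison of the drugs asked where the treatments differed. Levels relative to control were higher with SQ1 than with pravastatin for 9 of the 10 genes, where 29.3% of all tested genes were higher, 23.8% lower and 53.1% differed in either direction. The median difference was 1.21 on the log2 scale over the 10 genes and 0.013 over all genes. Because the arrays of one replicate number share a control culture, the difference was also taken within replicate numbers. There SQ1 lay above pravastatin in 8 of 8 pairs for each of the 10 genes. The share of all genes with 8 of 8 pairs in the same direction was not counted. With the number as a fixed block 10 of 10 passed, where 34% of all genes were higher and 62.5% differed.

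Ugt2a3 had differences within pairs of 1.79 at the lowest, 2.31 at the median and 2.70 at the highest. The fitted difference was 2.28 ± 0.27 (adjusted p = 2.79e-06). Ugt2b1 ran from 1.58 through 2.28 to 2.595 within pairs (2.17 ± 0.35, adjusted p = 7.05e-05). These were the genes with the widest distance between the drugs, and for both the SQ1 and pravastatin ratios did not overlap. Ugt3a2 ran from 0.98 through 1.65 to 2.24 within pairs (1.67 ± 0.25, adjusted p = 3.81e-05), again without overlap of the ratios, as for Ugt2b36 (1.27 ± 0.16, adjusted p = 6.63e-06). Of all tested genes 20.6% had ratios that did not overlap between the drugs.

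Ugt2b5 (1.21 ± 0.27, adjusted p = 0.00138), Ugt2b37 (1.21 ± 0.26, adjusted p = 0.000995) and Ugt2b38 (1.09 ± 0.22, adjusted p = 0.00053) differed by about the same amount between the drugs. Ugt2b34 differed by 0.89 ± 0.22 (adjusted p = 0.00306). In these 4 genes the highest pravastatin ratio reached above the lowest SQ1 ratio, although no pair did. Ugt2b35 differed by 0.45 ± 0.19 and did not pass (adjusted p = 0.0572), but within replicate numbers it measured 0.45 ± 0.048 and passed (adjusted p = 3.66e-06). Ugt3a1 differed by 0.34 ± 0.12 (adjusted p = 0.0298), and by 0.34 ± 0.057 within replicate numbers (adjusted p = 0.000198). From Agilent's processed signals the difference was 0.69 ± 0.25 (adjusted p = 0.0268). Its call was lost without background correction (adjusted p = 0.0568), with the slide as a random block (adjusted p = 0.0633), with the scan day as one (adjusted p = 0.151), and without any one of SQ1 replicates 3, 4, 7 and 8 or pravastatin replicates 1, 2, 5 and 6 (0.29 to 0.33).

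**Figure D2:**
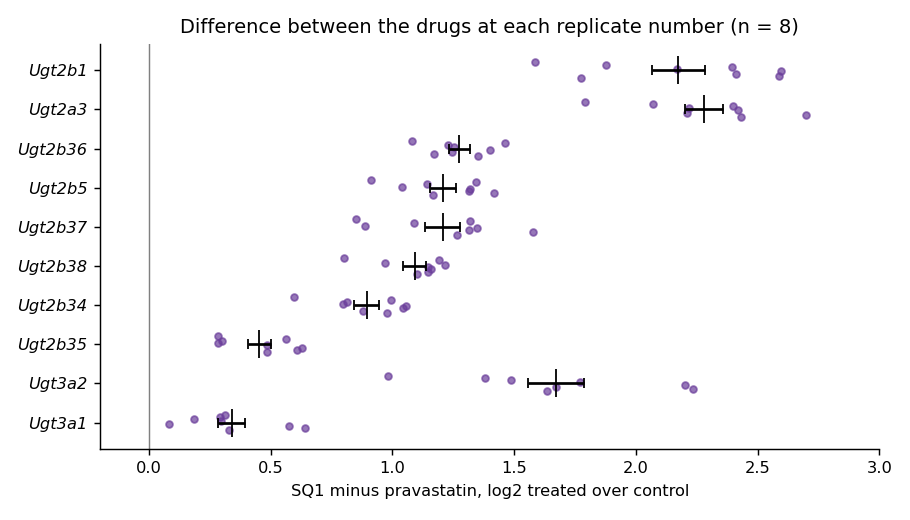
Difference between the SQ1 and pravastatin log2 ratios (horizontal axis) at each of 8 replicate numbers, as points, for each gene, with the mean ± SE of the fit that has the replicate number as a block. Every point lies above 0, from 0.084 for Ugt3a1 to 2.70 for Ugt2a3.

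The arrays of each drug came from 2 slides of 4 arrays with both dye orientations: slide 1 (SQ1) and slide 3 (pravastatin) held replicates 1, 2, 5 and 6, and slides 2 and 4 held replicates 3, 4, 7 and 8. The 10 genes differed between the slides of either drug. Every one had a lower ratio on slide 1 than on slide 2 and on slide 3 than on slide 4, with a median of -0.894 between slides 1 and 2 and of -0.803 between slides 3 and 4. Of all tested genes, 8.31% were lower and 3.97% higher on slide 1 than on slide 2 (12.3% in all), and 15.1% were lower and 6.7% higher on slide 3 than on slide 4 (21.8% in all). The arrays of the slides did not overlap in any of the 10 genes for either drug, as in 13% and 16% of all genes in that direction.

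On slide 1, 8 of the 10 genes fell with SQ1 (median -0.547), where 19.5% of all genes were lower and 34.8% were called. On slide 2, 6 rose and 2 fell (median 0.374), where 14% of all genes were higher and 27% were called. Ugt2b5 had SQ1 ratios of -0.787 to -0.297 on slide 1 and of 0.124 to 0.605 on slide 2, so that it fell on the first slide (-0.57 ± 0.11, adjusted p = 0.000648) and rose on the second (0.43 ± 0.11, adjusted p = 0.00676). Ugt2a3 likewise fell on slide 1 (-0.74 ± 0.12, adjusted p = 0.000158) and rose on slide 2 (0.38 ± 0.12, adjusted p = 0.0245). Ugt2b37 and Ugt2b38 did the same. In 5 of the 10 genes, these 4 and Ugt2b35, every array of slide 1 was below 0 and every array of slide 2 above it. How many of all tested genes turned their sign in this way was not counted. A wider group, with lower ratios on slide 1 without overlap, made up 13% of all genes. Ugt2b1 (-1.79 and -0.46) and Ugt3a2 fell on both slides. With a term for each slide in the fit, chosen after seeing the data, 5 of the 10 were called with SQ1, where 40.9% of all genes were: the same 3 that fell, and Ugt2b34 and Ugt2b35, which rose.

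With pravastatin, 10 of 10 genes fell on slide 3 (median -1.71, where 35.2% of all genes were lower, 29.1% higher and 64.3% called) and 9 of 10 on slide 4 (median -0.765, where 30.5% were lower and 57.5% called). The exception was Ugt2b35, which measured -0.65 ± 0.073 on slide 3 (adjusted p = 1e-06) and 0.10 ± 0.073 on slide 4 (adjusted p = 0.252). SQ1 lay above pravastatin in 10 of 10 genes among replicates 1, 2, 5 and 6 (median 1.22, with 27.4% of all genes higher and 46.4% called) and in 10 of 10 among replicates 3, 4, 7 and 8 (median 1.20, with 25.2% higher, 20.4% lower and 45.6% called). The change of that difference between the slide pairs was called by limma in 0 of the 10 genes and 0 of all tested genes. At an unadjusted p below 0.05 it passed in 0 of the 10 and 828 of all 15049 genes.

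The levels in each channel were also compared between slides. Log2 signals of control cells were higher on slide 1 than on slide 2 without overlap in 10 of 10 genes, as in 15.3% of all genes, and on slide 3 than on slide 4 without overlap in 6 of 10, as in 16.4% of all genes. Signals of treated cells separated in either direction in 2 of 10 genes between the SQ1 slides and in 3 of 10 between the pravastatin slides, as in 28.3% and 29.4% of all genes. Ugt2b1 had control signals of 13.39 ± 0.29 on slide 1 and 11.83 ± 0.58 on slide 2 (SD, n = 4), whereas its SQ1 signals were 11.60 ± 0.40 and 11.37 ± 0.26. Its control signals on slides 3 and 4 were 13.39 ± 0.32 and 11.77 ± 0.62, and its pravastatin signals 9.48 ± 0.20 and 9.08 ± 0.079. Ugt2b5 had control signals of 17.45 ± 0.18 and 16.74 ± 0.21 on slides 1 and 2 beside SQ1 signals of 16.88 ± 0.096 and 17.17 ± 0.11.

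**Figure D3:**
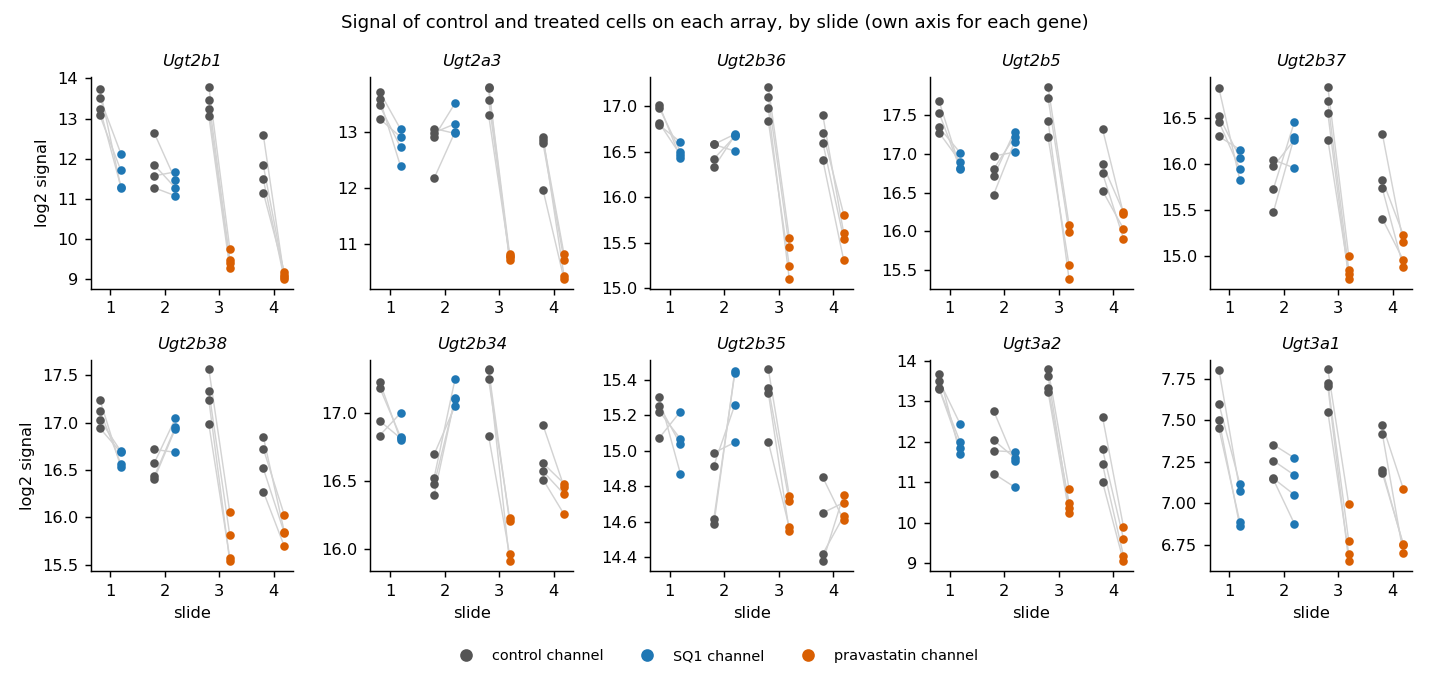
Log2 signal (vertical axis, a separate scale for each gene) of control cells in grey and treated cells in blue (SQ1) or orange (pravastatin) on each array, by slide, with lines joining the channels of an array. Means of the control signals lie higher on slides 1 and 3 than on slides 2 and 4. For Ugt2b1 they were 13.39 against 11.83 and 13.39 against 11.77. Single control signals of slides 3 and 4 separate without overlap in 6 of 10 genes.

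The control signals followed the replicate number on both sets of arrays. Both arrays of a number carried the control in the same dye, so these signals keep the dye effect of a probe. For Ugt2b1, the signals of one control number on its SQ1 and its pravastatin array differed by an RMS of 0.0611 over 8 numbers, while the means of the numbers ranged over 2.55, from 11.21 for number 8 to 13.76 for number 1. Ugt3a2 had an RMS of 0.184 and a range of 2.63, and Ugt2b36 an RMS of 0.22 and a range of 0.696. In 10 of 10 genes the means of the controls numbered 1, 2, 5 and 6 all lay above those of 3, 4, 7 and 8, as in 15.7% of all genes. Number 8 was the lowest in 10 of 10, as in 15.4% of all genes. Over the 8 arrays, the control signals of each of the 10 genes had a larger SD than the treated signals, with SQ1 and with pravastatin, as in 66.5% and 62.7% of all genes. The slide and the set of control cultures cannot be told apart within a drug. Slide 3 was also scanned on another day than slides 1, 2 and 4. Scan day is thus a further difference between slides 3 and 4, and between the drugs at numbers 1, 2, 5 and 6.

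Markers of cell types were read by slide in the same way. Of 10 hepatocyte markers, 4 were lower on slide 1 than on slide 2 and 3 lower on slide 3 than on slide 4, with medians of the differences of -0.341 and -0.405, where 8.31% and 15.1% of all genes were lower. Of 9 Kupffer cell and leukocyte markers, 0 differed between slides 1 and 2 and 1 between slides 3 and 4. Between slides 1 and 2, and between slides 3 and 4, 0 and 1 of 8 endothelial, 1 and 1 of 8 stellate cell and fibroblast, and 1 and 1 of 6 cholangiocyte markers differed. Of all genes, 12.3% and 21.8% differed. Against control, 5 of 10 hepatocyte markers fell and 0 rose with SQ1 (median -0.267), and 10 of 10 fell with pravastatin (median -1.56). Of all tested genes, 15.7% were higher and 16.6% lower with SQ1, and 30.9% higher and 35.8% lower with pravastatin. Of the Kupffer cell and leukocyte markers, 4 of 9 fell with SQ1 (median -0.118) and 7 of 9 with pravastatin (median -0.668). Endothelial markers rose in 4 of 8 with SQ1, and with pravastatin 3 rose and 4 fell. Stellate cell and fibroblast markers had 1 rise and 1 fall of 8 with SQ1 and 2 falls with pravastatin. Of 6 cholangiocyte markers, 3 fell with SQ1, and 3 fell and 1 rose with pravastatin. The part of these markers in the results of the 10 genes was not tested.

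Some of the genes kept very close to each other across the 16 arrays. The ratios of Ugt2b5 and Ugt2b37 differed by an RMS of 0.0749, those of Ugt2b37 and Ugt2b38 by 0.155 and those of Ugt2b5 and Ugt2b38 by 0.162. The next pair, Ugt2b36 and Ugt2b38, stood at 0.23, and the most distant, Ugt2b1 and Ugt2b35, at 2.35. The closest 3 genes are also the 3 whose promoters were most alike. Ugt2b34 and Ugt2b35 stood at an RMS of 0.313 with 55.6% identity, and Ugt2b5 and Ugt2b35 at 0.748 with 59.2%. In the same gapped alignments, Ugt3a1, of the other family, reached 45.2% to 54% with the Ugt2 promoters. Values of 55.6% and 59.2% lie near these, so they cannot show how alike the pairs are. By comparison, the probes of a single gene differed by 0.175 for Ugt2b35 and 0.566 for Ugt3a2. These are close relatives, and a probe designed for one may also bind transcripts of another, so their values may not be independent. Whether Ugt2b5, Ugt2b37, Ugt2b38 and Ugt2b36 share probe signal was not tested.

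In the order of the chromosome, the Ugt2 genes that fell most with pravastatin did not lie together. Ugt2b1 stood between Ugt2b34 and Ugt2b35, the genes that moved least, and Ugt2a3 between Ugt2b37 and Ugt2b38. Of the neighbours outside the cluster, Ythdc1, a reader of methylated adenosine in RNA, measured -0.010 ± 0.029 with SQ1 and 0.025 ± 0.029 with pravastatin. On the other side, Sult1b1, a sulfotransferase, rose with SQ1 (0.28 ± 0.098, adjusted p = 0.0354) and fell with pravastatin (-1.35 ± 0.098, adjusted p = 4.26e-09). Sult1d1, another sulfotransferase, also rose with SQ1 (1.03 ± 0.12) and fell with pravastatin (-0.95 ± 0.12).

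Around the Ugt3 pair, Nadk2, the mitochondrial NAD kinase, fell with SQ1 (-0.26 ± 0.091) and with pravastatin (-0.87 ± 0.091). Lmbrd2 rose with both (0.34 ± 0.048 and 0.23 ± 0.048). Capsl measured 0.034 ± 0.054 with SQ1 and fell with pravastatin (-0.26 ± 0.054). Spef2, a protein of sperm flagella, measured 0.044 ± 0.029 and -0.0095 ± 0.029. The falls of Ugt3a2 were the largest among the measured genes of this stretch, a difference that was not tested.

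**Figure D4:**
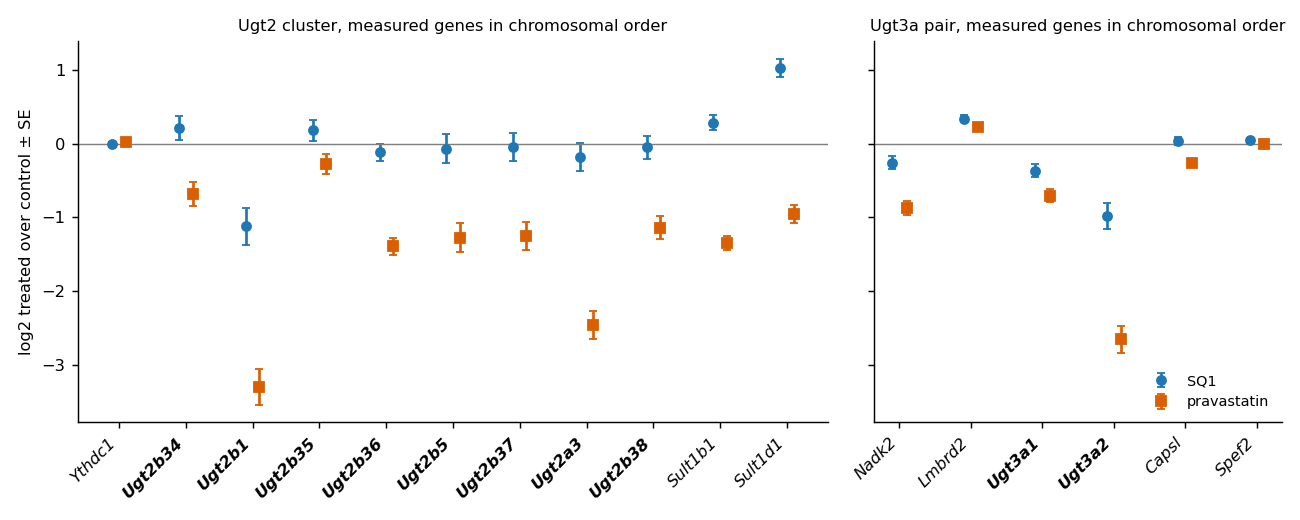
Log2 treated over control ± SE (vertical axis) for SQ1 (blue circles) and pravastatin (orange squares) in the measured genes of the Ugt2 cluster, left, and around the Ugt3 pair, right, in chromosomal order without distances, with the 10 genes in bold. Ugt2b1 (-3.30), Ugt2a3 (-2.46) and Ugt3a2 (-2.65) with pravastatin stand apart from the genes next to them.

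Among the tested genes that are no members, those that tracked each member most closely over the 16 arrays were found by the RMS difference of their log2 ratios. Ugt2b36 was closest to Hnf4a, the nuclear receptor of hepatocyte identity (0.118), then to Amacr (0.121) and Ugp2 (0.124). Ugt2b1 was closest to Otc, a urea cycle enzyme (0.229), and Klkb1, plasma prekallikrein (0.249). Ugt2a3 was closest to Dpys, an enzyme of pyrimidine breakdown (0.199), and Ugt3a2 to Cyp2c23, a cytochrome P450 (0.247).

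Outside the members, Ugt2b5 was closest to Ugt1a6b, a glucuronosyltransferase of the other family (0.198), and Ugt2b37 to Smoc2 (0.191). Ugt2b5 and Ugt2b37 were closer to each other (0.0749). Members were left out of the search for the genes below as well. Ugt2b38 was closest to Elovl2, a fatty acid elongase (0.162), and Ugt2b34 to Tsku (0.187). Ugt2b35 was closest to Prodh, proline dehydrogenase (0.17), and Ugt3a1 to Olfr342 (0.125) and Srebf1 (0.136). What these genes share with the members beyond their ratios was not tested.

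Other glucuronosyltransferases were read from a list of 12, of which 5 were on the array and 3 could be tested. Ugt1a6a, Ugt1a6b and Ugt1a10 come from one complex locus and share their last exons, so a probe there cannot tell them apart. All 3 fell with pravastatin, Ugt1a6b most (-1.32 ± 0.15, adjusted p = 7.71e-07), followed by Ugt1a10 (-0.95 ± 0.18) and Ugt1a6a (-0.70 ± 0.11). With SQ1, limma called 0 of the 3, and 0 passed at an unadjusted p below 0.05. Within slides, 3 of the 3 fell with SQ1 on slide 1, and 1 rose on slide 2. For this list and those below, the shares of all tested genes with SQ1 were 15.7% higher and 16.6% lower. With pravastatin they were 30.9% higher and 35.8% lower. On slide 1, 19.5% of all genes were lower with SQ1, and on slide 2, 14% were higher.

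Genes that supply UDP-glucuronic acid, the sugar donor, were called in 0 of 8 with SQ1, also at an unadjusted p below 0.05, while 2 rose and 4 fell with pravastatin. Ugp2, which makes UDP-glucose, fell by 1.42 ± 0.14 on the log2 scale and Slc35d1, a carrier of UDP-glucuronic acid into the endoplasmic reticulum, by 0.75 ± 0.11. Ugdh, the dehydrogenase that makes UDP-glucuronic acid, measured 0.011 ± 0.12 with pravastatin (adjusted p = 0.941) and 0.16 ± 0.12 with SQ1 (adjusted p = 0.346). The median of the list was -0.119 with pravastatin and -0.022 with SQ1. Within slides, 4 of the 8 fell with SQ1 on slide 1 and 3 rose on slide 2.

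Of 6 genes that supply UDP-N-acetylglucosamine, 1 rose and 1 fell with SQ1, and 3 rose and 2 fell with pravastatin. Their log2 differences spanned -0.21 to 0.28. Pgm3, a phosphoacetylglucosamine mutase, rose by 0.28 ± 0.066 with pravastatin. Of 6 genes that export or cleave glucuronides, 3 rose and 2 fell with SQ1, and 2 rose and 2 fell with pravastatin. Abcc4, an exporter of the basolateral membrane, rose with SQ1 (0.59 ± 0.15) and with pravastatin (2.07 ± 0.15). Abcc2, the exporter of conjugates into bile, rose too (0.44 ± 0.055 and 0.31 ± 0.055), whereas Abcg2 fell (-0.22 ± 0.060 and -0.30 ± 0.060). After centring on the median in place of loess, both lists held 0 falls, with 1 and 3 rises with SQ1 and 3 and 2 with pravastatin.

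Among 20 transcription factors known to act on liver glucuronosyltransferase genes, 5 rose and 3 fell with SQ1 (median 0.055), and 3 rose and 15 fell with pravastatin (median -0.45). Of all tested genes, 32.3% were called with SQ1, and 30.9% were higher and 35.8% lower with pravastatin. The largest falls with pravastatin were in Nr1h4, the bile acid receptor FXR (-2.00 ± 0.14), Nr1i3, the receptor CAR (-1.93 ± 0.19), and Nr1i2, the receptor PXR (-1.52 ± 0.071). Hnf4a fell by 1.30 ± 0.095 on the log2 scale. Among the genes called with SQ1, the largest change was a rise of Nr1i2 (0.26 ± 0.071), followed by Foxa1 (0.24 ± 0.026) and Rxra (0.24 ± 0.049). With the slide as a random block, 2 of the 20 were called with SQ1, both higher, and after centring on the median 4, all higher. Of all 15049 genes, SQ1 called 2543 with that block and 2071 after that centring.

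**Figure D5:**
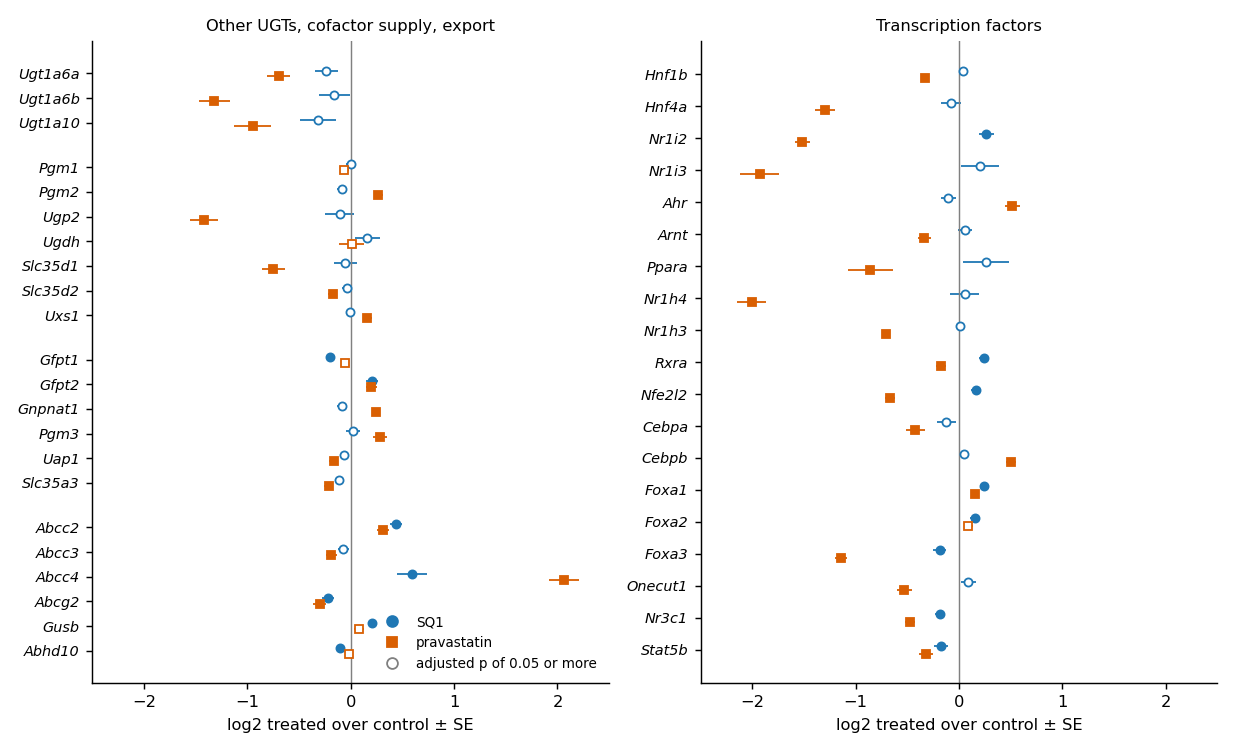
Log2 treated over control ± SE (horizontal axis) with SQ1 (blue circles) and pravastatin (orange squares) for other glucuronosyltransferases, sugar donor supply and export or cleavage genes, left, and for transcription factors, right, with open symbols where the adjusted p was 0.05 or more. Abcc4 with pravastatin is the highest at 2.07 and Nr1h4 the lowest at -2.00.

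Of the 27 genes with the run GTTANANNTTAAC before their start, 19 were outside the 10 described here, and 9 of those could be tested. With pravastatin 7 of the 9 fell and 2 rose, and with SQ1 3 of the 9 were called. A1cf, a cofactor of apolipoprotein B messenger RNA editing, had the largest fall with pravastatin (-1.33 ± 0.13), followed by Aspa (-0.87 ± 0.13) and Pklr, the liver pyruvate kinase (-0.84 ± 0.078). Cpb2, a plasma carboxypeptidase, and Lims1 rose with pravastatin (0.41 ± 0.055 and 0.35 ± 0.088). These genes were named after their values were seen. Of all tested genes 35.8% were lower and 30.9% higher with pravastatin, and 32.3% were called with SQ1.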

How the data were processed

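RNA of treated and of control cells (500 ng per the labels) was labelled with a red or a green Alexa dye and read on 16 two-colour Agilent arrays. Per the file headers, the authors extracted spot intensities with Agilent Feature Extraction 11.0.1.1. The deposited scanner files also hold Agilent's log10 ratio of red over green, and the deposited series table holds log2 ratios whose direction, found by comparison with the scanner files (r = 0.742 to 0.999), was treated over control; its exact processing is not given in the sources used here.

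From the deposited median intensities, background was corrected with normexp (offset 50), arrays were normalised by loess within each array, and spots of a probe were averaged. Of 39429 probes, 27234 were named by RefSeq accession, for 20659 genes. A gene was represented by its probe of highest mean intensity. The 15049 genes tested were well above background on at least 4 treated arrays of a drug or 8 control channels, with ratios on at least 7 arrays of each drug. Limma 3.58.1 in R 4.3.3 fitted both drugs over 16 arrays with a dye term (13 residual degrees of freedom), two-sided, with Benjamini-Hochberg adjustment over all tested genes. Signals of single channels were taken after loess and Aquantile normalisation and are open to dye bias only as far as the balanced dye exchange leaves it. The fit was tested on simulated data with independent noise on each array. The simulation held no slide or control culture effect, so it does not show how the fit fares with them.

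Named were the 10 genes, up to 3 called genes of each list with the largest difference for a drug, and measured neighbours in RefSeq order. The genes closest to each member, other members left out, were named too. Genes outside this rule (Ugdh and those with the shared promoter letters) were chosen after their values were seen. Hnf4a met the rule as the gene closest to Ugt2b36, but its value in its list was likewise added after being seen. Some genes of the lists are counted but not reported by name here or in the figures. The members and lists were chosen with earlier results of these data known. Arrays of the same replicate number deviated together (correlations of 0.221 to 0.718, 8 of 8 over 0.1). However, only 7 of 16 arrays correlated best with the other drug's array of their own number. Arrays whose numbers were placed together on a slide may deviate together too, which was not tested. The numbers were taken to pair the arrays of the drugs because their names give them the same control number. Alternatives changed the background correction, normalisation, filter, probes, threshold, dye term, weights, blocks (slide, scan day, replicate number), the slides and arrays included, and the source of the values.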

Additional observations from a re-analysis of the deposited data

Results flagged for a closer look

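The SQ1 and pravastatin ratios of the 10 genes differed between the slides of a drug, by a test of that difference in the fit with a term for each slide. The median over the 10 genes was -0.894 for slide 1 minus slide 2 with SQ1 and -0.803 for slide 3 minus slide 4 with pravastatin. With SQ1, 4 genes fell on slide 1 and rose on slide 2, with differences between the slides of -1.12 for Ugt2a3, -1.0 for Ugt2b5, -0.962 for Ugt2b37 and -0.834 for Ugt2b38. The share of all tested genes that did so was not counted. No array stood apart from the other 7 of its drug in any of the 10 genes by Dixon's criterion, which chance passes in about 1 of 20 groups.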

How the results depend on the processing

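The count of genes called among the 10 was 3 with SQ1 without any one array, 9 to 10 with pravastatin and 8 to 10 for SQ1 minus pravastatin. Over the other 17 alternatives it was 8 to 11 with pravastatin and for SQ1 minus pravastatin, the 11 being probes of 12. With SQ1 it was 3 under most alternatives and 4 of 12 probes taken singly; it was 8 on slide 1 alone (0 higher, 8 lower), 8 on slide 2 alone (6 higher, 2 lower), and 5 with slide terms in the fit (2 higher, 3 lower), an alternative chosen after seeing the data. Within those slide terms Ugt2b34 (0.21, adjusted p = 0.0169) and Ugt2b35 (0.18, adjusted p = 0.0117) rose with SQ1. The replicate number as a block brought the calls to 10 of 10 for SQ1 minus pravastatin and, as a random block, for pravastatin, and changed no other call of the 10 genes.

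Signs turned with SQ1 only in genes that were not called. Centring on the median gave 0.073 for Ugt2b5, 0.017 for Ugt2b36, 0.090 for Ugt2b37 and 0.090 for Ugt2b38. Slide 1 alone gave -0.19 for Ugt2b34 and -0.16 for Ugt2b35. Slide 2 alone gave 0.38 for Ugt2a3, 0.43 for Ugt2b5, 0.16 for Ugt2b36, 0.44 for Ugt2b37 and 0.37 for Ugt2b38. The scan day as a random block gave -0.021 for Ugt2b34 and -0.025 for Ugt2b35. Without SQ1 replicate 1 the values were 0.043 for Ugt2b5, 0.071 for Ugt2b37 and 0.044 for Ugt2b38; without replicate 5 they were 0.043, 0.048 and 0.042; without replicate 6 Ugt2b37 was at 0.00016. Without any one array these genes ranged from -0.17 (Ugt2b5), -0.15 (Ugt2b37) and -0.14 (Ugt2b38) up to these values. With pravastatin, Ugt2b35 turned to 0.10 on slide 4 alone. From Agilent's processed signals Ugt3a1 moved to -0.70 with SQ1, -1.39 with pravastatin and 0.69 for SQ1 minus pravastatin, each still called. Ugt3a1 was not called with SQ1 on slide 2 alone (-0.13, adjusted p = 0.0988). Ugt2b35 passed for SQ1 minus pravastatin with the mean of its probes (0.48, adjusted p = 0.0283), array weights (0.55, adjusted p = 0.0179), and without SQ1 replicate 1 or 5 or pravastatin replicate 4, 7 or 8 (0.50 to 0.53).

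Over all genes, SQ1 called 4860, but 2071 with median centring (71.1% of them higher, against 48.7%), 2543 with the slide and 2238 with the scan day as a random block, 3121 at an adjusted p of 0.01 and 7498 of all probes taken singly. Pravastatin called 10039 genes and 16475 probes; 46.3% of its calls were higher, against 61% with median centring and 56.8% with Agilent's processed signals. SQ1 minus pravastatin called 7996 genes, 3697 with median centring and 12583 probes; 55.1% were higher, against 44.7% with Agilent's processed signals. The cause of these shifts was not tested. The probes' own sequences were not used here, so relatives that share a probe could not be separated.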
